A study of Mus musculus with 2 samples.

Results

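Axon guidance genes were described across 2 coronal sections of the adult mouse brain. The members were the genes whose symbol begins with Sema or Plxn, or reads Epha, Ephb, Efna or Efnb followed by digits, and 54 of the 32285 genes in the deposited tables met this rule: 20 semaphorins, 9 plexins, 8 ephrins, 14 Eph receptors and 3 antisense RNAs that carry the name of Plxna4. The study measured RNA in place on Visium slides, on which each spot captures RNA from a small patch of tissue that can hold several cells. Both mice were adult males of the ArcCreERT2::eYFPflx line on a C57BL/6 background, in which the activity-dependent Arc promoter drives a Cre recombinase that acts only when its inducing drug is given. The mouse labelled trained had learned active place avoidance, in which a rotating arena carries the animal towards a zone where its feet are shocked, whereas the mouse labelled untrained had been in the same arena with the shock off. Both brains were collected after a retention test run with the shock off, and the sections were cut through the dorsal hippocampus on both sides of the brain.

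Each label comprised 1 section of 1 mouse (n = 1 and n = 1), so no test between labels was possible, and training, animal, section plane and library could not be told apart. Labels and study text may not match as to which section is which, and each direction between sections follows the deposited labels. The section labelled trained held 4152 spots and 29515831 unique molecular identifiers (UMIs, each of which marks 1 captured RNA molecule), and the section labelled untrained held 3738 spots and 59029131 UMIs. The 2 sections shared 3448 spot barcodes, which are fixed positions on the slide rather than shared tissue. Levels are given as CPM, the UMIs of a gene per 1000000 UMIs of all genes, summed over the spots of a region or section, with exact Poisson 95% intervals for levels and exact conditional binomial 95% intervals for ratios. These intervals cover counting error only. As capture was at the 3′ end of transcripts, levels were compared between regions and sections and not between genes.

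Semaphorins, plexins, ephrins and Eph receptors steer growing axons and are also found in the mature brain, where they are known for roles at synapses, in glia and in vessels. Class 3 semaphorins are secreted, and most of them act through a neuropilin joined to a class A plexin, whereas Sema3e binds Plxnd1 without needing a neuropilin. The semaphorins of classes 4 to 6 are held in the membrane, and Sema7a, which binds Plxnc1, is anchored there by a lipid. EphA receptors mainly bind the lipid-anchored ephrin-A ligands and EphB receptors the membrane-spanning ephrin-B ligands, and Epha4 binds ligands of both classes.

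Spots were clustered in both sections together, without the members and without 40 other guidance genes, so that neither list shaped the regions. This gave 19 regions that were present in both sections, of which 16 were named by marker genes. Among these, the granule layer of the dentate gyrus was led by Dsp and C1ql2, the CA1 pyramidal layer by Lefty1 and Spink8, the habenula by Gpr151 and Pou4f1, the white matter by Enpp6, Mal and Mog, and the choroid plexus by Ttr. The deep layer neocortex had only 1 of its markers among its 10 leading genes. Its 8 markers summed to 511 and 407 CPM there in the sections labelled trained and untrained. They summed to more in the Ccn2-led deep layer neocortex (808 and 665 CPM) and in the habenula (622 and 502 CPM). A broader Ddn-led cluster was also named by CA1 markers. Their sum was 562 and 571 CPM there, against 1480 and 1584 CPM in the CA1 pyramidal layer. Markers of neuropil and astrocytes summed to 2853.5 CPM in the Ddn-led cluster under the label trained, the highest of any region. Under the label untrained their sum was 2011 CPM, below the meninges and vessels at 2169 CPM. Clusters 6, 13 and 18 stayed unnamed. Cluster 6 was led by Spp1, Syt2 and Pvalb. Cluster 13 was led by Cabp7, Klk8 and Homer3 and had the highest summed level of 6 markers of the CA3 pyramidal layer, 727 and 629 CPM in the sections labelled trained and untrained against at most 460 and 408 CPM in any other region, but no CA3 marker was among its 10 leading genes. Cluster 18 was shallow, with 80589 and 108544 UMIs in all, and ratios in it rested on few molecules, so the highest, next highest and lowest regions of single members are given without it. With it, and among the 37 members with enough UMIs to compare, cluster 18 had the highest CPM, computed with 0.5 UMIs added to each regional count, for Plxna1, Plxna3, Sema3a, Sema4a, Sema4f, Sema6c and Sema7a in the section labelled trained and for Efnb1, Efnb2, Ephb2, Sema3a and Sema6c in the section labelled untrained. The sections did not hold the same tissue in the same amounts: the choroid plexus covered 77 spots in the section labelled trained and 162 in the section labelled untrained, and the cluster with markers of striatum and central amygdala covered 213 and 29.

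Members were compared between regions when they had at least 200 UMIs in each section, which left 37 of the 54: 15 semaphorins, all 9 plexins, 4 ephrins and 9 Eph receptors. A member was called regional when its CPM in a region was at least 2-fold its CPM in all other clustered spots of the same section, in the same region in both sections. By this measure 30 of the 37 members were regional, whereas 28.8% of all 10544 genes tested were. When the region also had to hold at least 10 UMIs of the gene in each section, 30 members were still called, beside 26% of all genes. With this minimum, the CA1 pyramidal layer took 10 members (4.59% of all genes), cluster 13 took 8 (2.34%) and the white matter took 7 (5.27%). The dentate granule layer took 4 (4%), as did the upper layer neocortex (1.87%), while the deep layer neocortex (0.967%) and the Prkcd-led thalamus (1.91%) took 3 each. The Oxt-led hypothalamus (1.57%) and the habenula (2.37%) took 2 each, and the choroid plexus (4.58%) and the Ccn2-led deep layer neocortex (0.958%) took 1 each. No member was called in the Pmch-led hypothalamus (0.484%), the Gbx2-led thalamus (1.01%), cluster 6 (0.844%), the broader Ddn-led CA1 cluster (0.579%), the meninges and vessels (1.62%), the striatal cluster (0.597%), the reticular thalamus (0.863%) or cluster 18 (0.0664%). The 7 members that were not regional were Sema3c, Sema4f, Sema6b, Sema7a, Plxnb1, Efnb1 and Epha10.

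**Figure D1:**
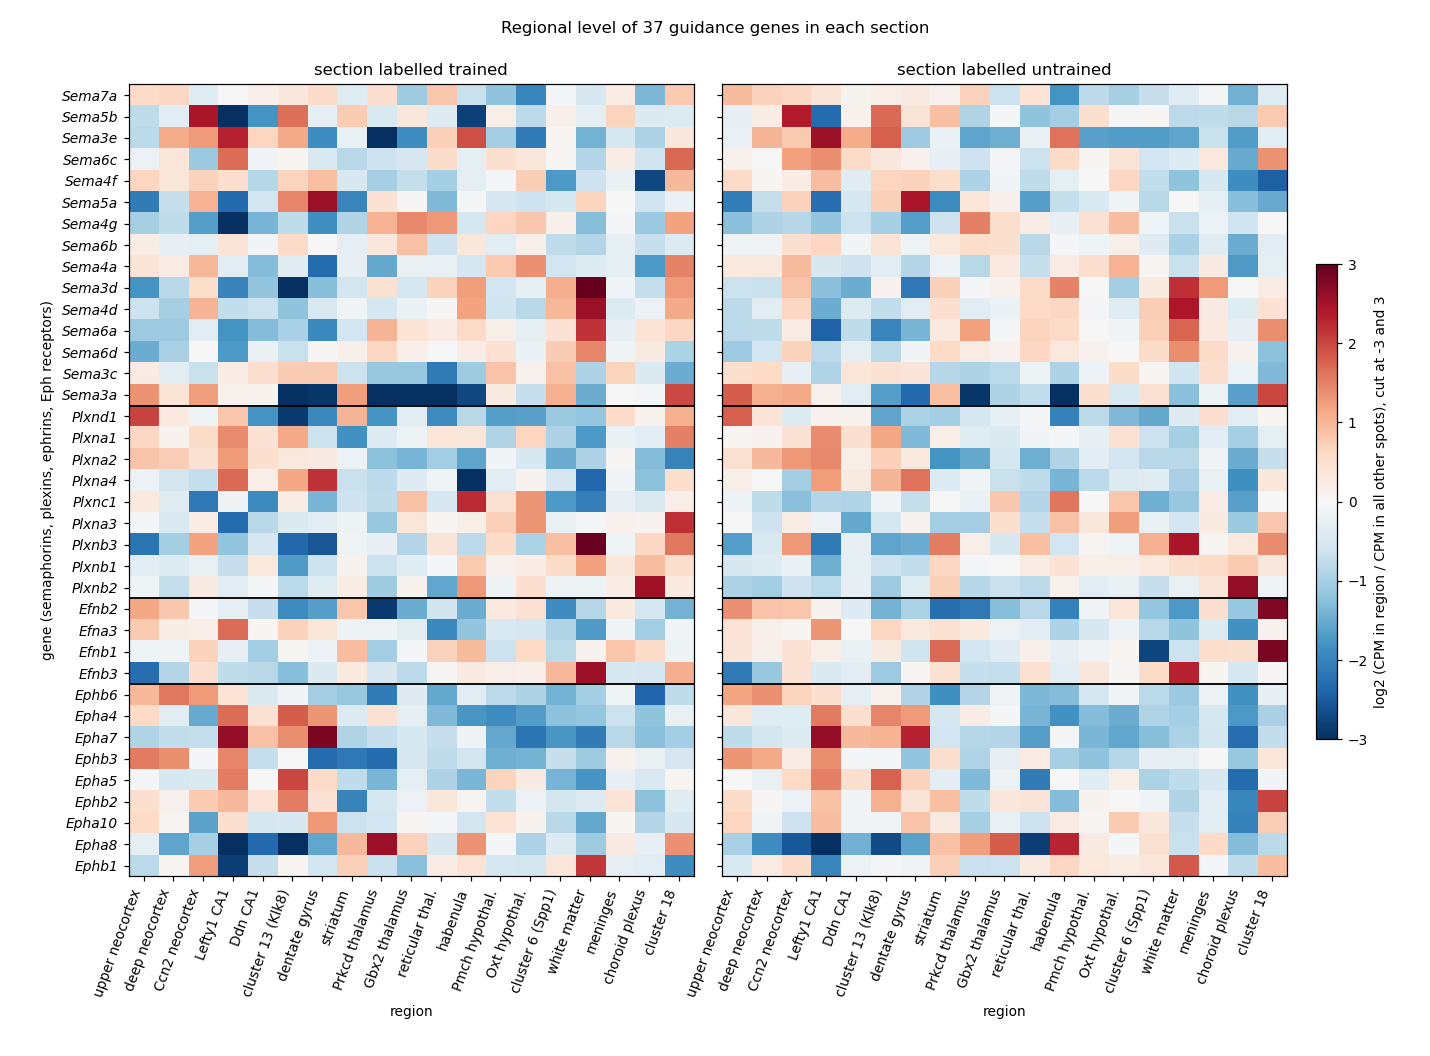
Level of the 37 members with at least 200 UMIs in each section (rows, grouped by family with black lines) in the 19 regions (columns), as log2 of CPM in the region over CPM in all other clustered spots of the same section, with the section labelled trained on the left and untrained on the right. Red blocks recur in both panels for Efnb3, Sema4d and Plxnb3 in white matter, Epha7 and Sema5a in the dentate gyrus and Plxnb2 in the choroid plexus, while the columns of cluster 18 differ between panels.

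The white matter, the myelin-rich tracts of the section, carried a set of 7 regional members: the ligands Efnb3, Sema3d, Sema4d, Sema6a and Sema6d and the receptors Ephb1 and Plxnb3. Efnb3, a membrane-spanning ephrin-B ligand (chromosome 11, 69554092 to 69560205, minus strand, mm10), reached 314 CPM (287 to 344) in white matter of the section labelled trained and 320 CPM (299 to 342) in that labelled untrained. Its lowest region in both sections was the upper layer neocortex, at 14.8 CPM and 18.8 CPM. White matter thus stood above the other spots by a log2 ratio of 2.56 (2.41 to 2.71) and 2.30 (2.19 to 2.41), and the next highest region, cluster 6, lay well below it in both sections at 126 and 110 CPM. Sema4d, the membrane semaphorin that binds Plxnb1 (chromosome 13, 51685529 to 51793747, minus strand), was at 148 CPM (130 to 169) and 169 CPM (153 to 185) in white matter, with log2 ratios of 2.58 and 2.41. The intervals of the sections overlapped for both ligands.

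Plxnb3, a class B plexin, showed the same region with 59.0 CPM and 70.8 CPM, and its log2 ratios were 2.96 and 2.46. Sema6a, a membrane semaphorin that binds class A plexins, was at 76.5 CPM and 68.5 CPM in white matter and was also regional in the Prkcd-led thalamus, at 38.4 CPM and 47.0 CPM. Ephb1, a receptor for ephrin-B ligands, was at 84.3 CPM and 70.4 CPM in white matter. Sema6d, a ligand of Plxna1, gave smaller ratios, 1.46 and 1.39 on the log2 scale. Sema3d, a secreted semaphorin, was the member of this set on which the sections differed most, with 44.7 CPM (34.8 to 56.6) from 69 UMIs under the label trained and 15.2 CPM (10.9 to 20.7) from 40 UMIs in the other section. White matter was nevertheless its highest region in both sections, with log2 ratios of 2.99 and 2.20.

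Markers of myelinating cells were highest in the same region. The white matter list had also given the region its name, so its high level there was set by the naming. Summed over 7 white matter markers, levels were 29372 CPM and 28500 CPM in the region and between 712 and 11097 CPM in the other regions of the section labelled trained and between 940 and 11312 CPM in those of the section labelled untrained. The 3 markers of oligodendrocyte precursors were also highest there, at 208 and 121 CPM against at most 124 and 84.2 CPM elsewhere. Their part in the levels of the 7 members was not tested, and fewer cells of a type cannot be told apart from less RNA per cell in spots of this kind.

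**Figure D2:**
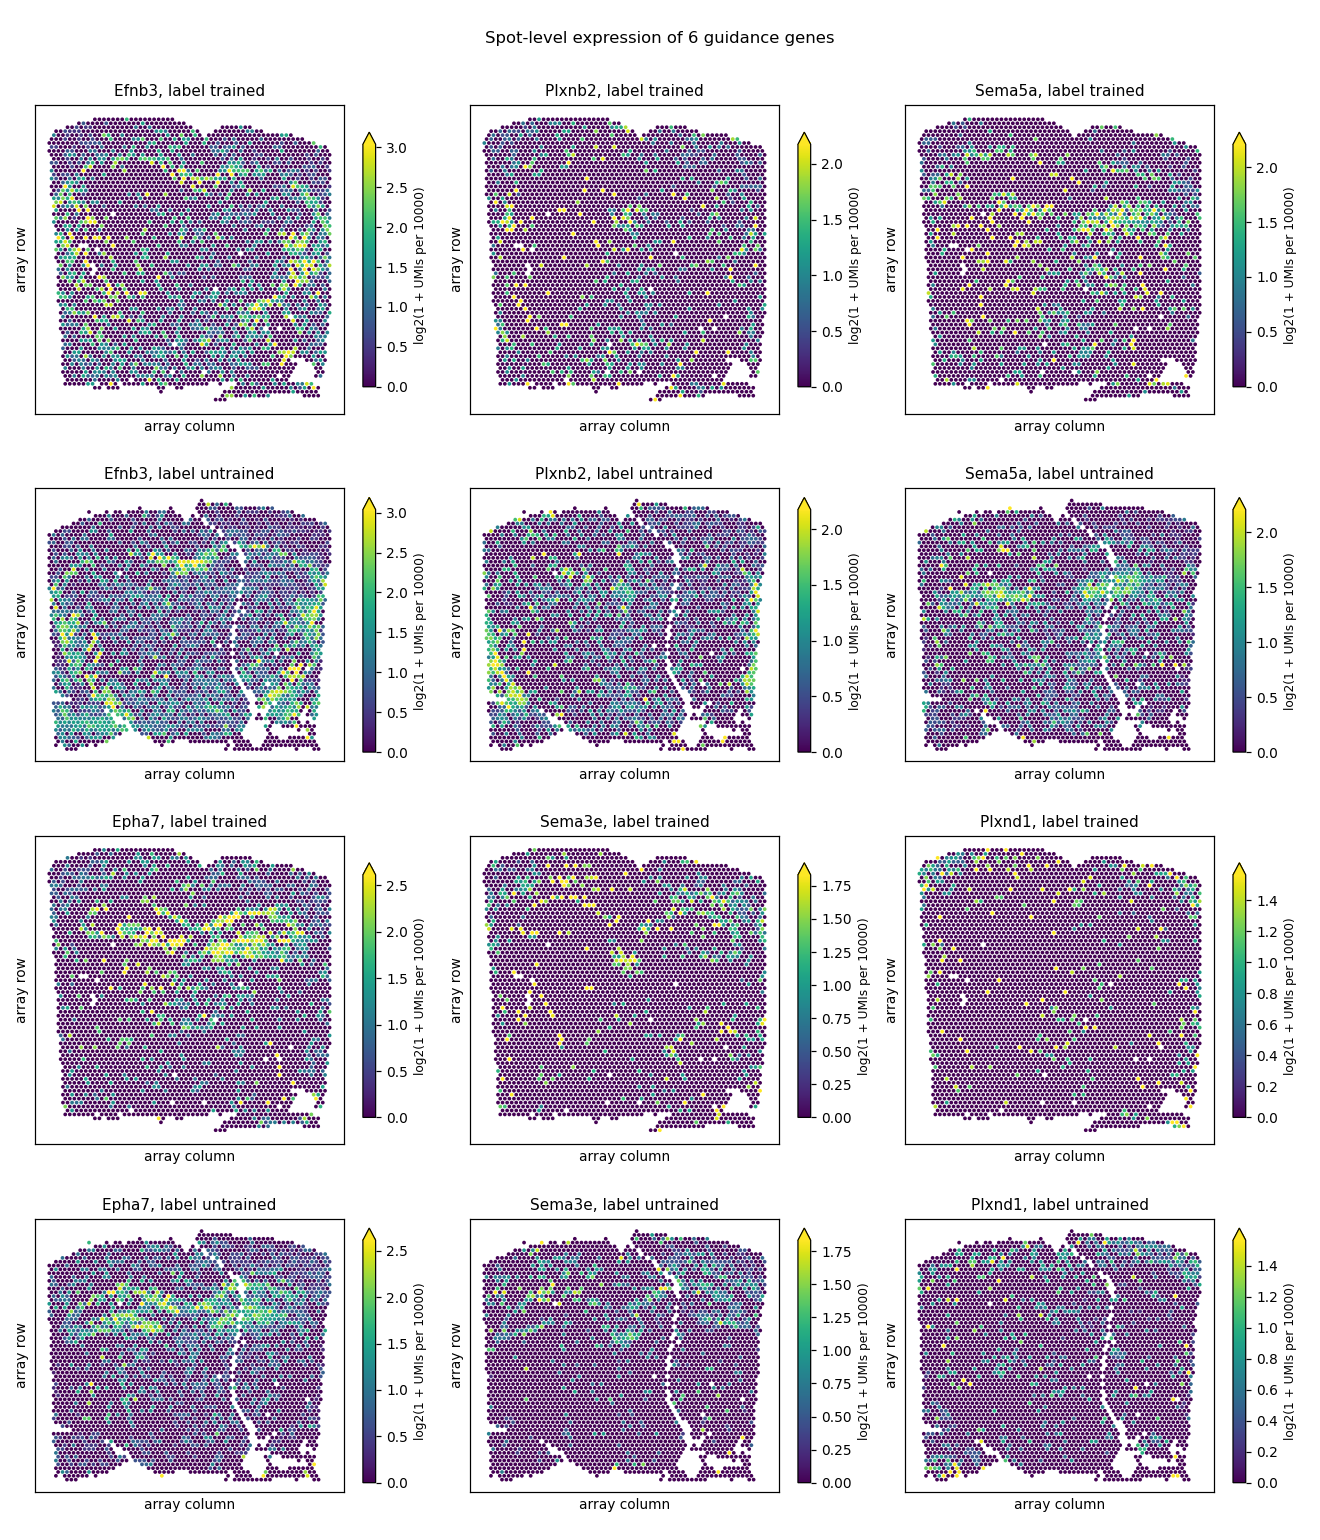
Each point is a spot at its array column and row, coloured by log2(1 + UMIs of the gene per 10000 UMIs of the spot), for Efnb3, Plxnb2, Sema5a, Epha7, Sema3e and Plxnd1, with the section labelled trained above the section labelled untrained for each gene and the brightest spots capped at the top of the scale. Efnb3 follows the fibre tracts, Plxnb2 the choroid plexus at the ventricles, Sema5a the dentate gyrus, Epha7 the hippocampal cell layers, Sema3e the CA1 layer, deep neocortex and habenula, and Plxnd1 the outer neocortex. Spots of the shallower section labelled trained reach a bright colour with a single UMI, which gives that section a more speckled look.

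Epha4, Epha5, Epha7 and Ephb3 were the Eph receptors called in the dentate granule layer or the CA1 pyramidal layer. Epha7, a receptor for ephrin-A ligands (chromosome 4, 28813131 to 28967499, plus strand), was at 344 CPM (314 to 377) in the dentate granule layer and 343 CPM (303 to 388) in the CA1 pyramidal layer of the section labelled trained. Under the label untrained it was at 213 CPM (198 to 228) and 295 CPM (268 to 323). The 2 layers therefore had overlapping intervals in 1 section, and the CA1 layer lay above the granule layer in the other. Its log2 ratios over the other spots were 2.64 and 2.63 in the CA1 layer and 2.82 and 2.30 in the granule layer. Epha7 was also regional in cluster 13, at 155 CPM and 105 CPM.

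Epha4 (chromosome 1, 77367185 to 77515088, minus strand) was regional in the same 3 regions. Cluster 13 held 348 CPM (315 to 383) and 248 CPM (231 to 265) of Epha4, the CA1 layer 329 CPM (290 to 372) and 277 CPM (251 to 305), and the granule layer 252 CPM and 222 CPM. The order of cluster 13 and the CA1 layer turned between sections, with overlapping intervals in both, and the habenula was lowest in both sections at 31.2 and 28.4 CPM. Epha5, another receptor for ephrin-A ligands (chromosome 5, 84054761 to 84417382, minus strand), was highest in cluster 13 in both sections, but at 230 CPM (204 to 259) in the trained-label section and 103 CPM (92.3 to 114) in the untrained-label section. The 2 sections thus gave the same highest region at levels whose intervals did not overlap, and the log2 ratios over the other spots were 2.00 and 1.77.

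Ephb2 and Ephb3, receptors for ephrin-B ligands, were present at low counts. Ephb2 was regional in cluster 13 with 25 UMIs (21.0 CPM) and 53 UMIs (15.6 CPM). Its profile over the 19 regions was the least alike between sections of all 37 members. Ephb3 was regional in the CA1 layer, at 22.3 and 26.5 CPM, the upper layer neocortex, at 21.3 and 23.6 CPM, and the deep layer neocortex, at 18.3 and 20.6 CPM. These 3 levels had overlapping intervals within each section. The ephrin-A ligand Efna3 was regional in the CA1 layer, at 138 CPM (113 to 167) and 92.9 CPM (78.2 to 110). Exons of Efna3, Epha10, Plxna1, Plxna4 and Plxnb1 overlap exons of a gene on the opposite strand in the annotation, and as the strand setting of the counting is not given in the sources used here, their counts are less certain.

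Of the class A plexins, Plxna1, Plxna2 and Plxna4 were regional in the CA1 layer, and Plxna4 also in the granule layer. Plxna4, a signalling partner of neuropilins, was highest in the granule layer at 115 CPM (97.8 to 135) and 69.2 CPM (61.1 to 78.2), followed by the CA1 layer at 91.8 CPM and 58.4 CPM. Plxna1 was highest in the CA1 layer at 49.8 CPM (35.2 to 68.4) and 71.7 CPM (58.8 to 86.5), followed by cluster 13. Plxna2 was regional in the CA1 layer only, at 57.7 CPM in both sections, with intervals of 41.9 to 77.4 and 46.2 to 71.2. Plxna1 and Plxna4, but not Plxna2, were also called in cluster 13. The call of Plxna4 there was only just past 2-fold, with a lower log2 ratio of 1.01. It fell below 2-fold without mitochondrial genes (0.96), when thinned (0.998) and on sides 1 and 2 (0.99 and 0.74). The call of Plxna1 there fell below 2-fold with every spot weighted equally (0.94).

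Among semaphorins, Sema5a and Sema3e marked different hippocampal layers. Sema5a, which combines a semaphorin domain with thrombospondin repeats and binds Plxna2 (chromosome 15, 32244810 to 32696341, plus strand), was at 173 CPM (151 to 196) and 168 CPM (155 to 181) in the dentate granule layer. Its lowest region in both sections was the CA1 pyramidal layer, at 6.55 CPM from 5 UMIs and 7.96 CPM from 12 UMIs. The log2 ratios were 2.58 and 2.45 in the granule layer and -2.34 and -2.28 in the CA1 layer. Sema3e (chromosome 5, 14025276 to 14256689, plus strand) ran the other way, with 109 CPM (86.7 to 135) and 92.2 CPM (77.6 to 109) in the CA1 layer and 6.55 CPM and 8.26 CPM in the granule layer. It was also regional in the habenula, at 88.8 and 50.3 CPM, in cluster 13, at 50.4 and 52.6 CPM, and in the deep layer neocortex, at 44.5 and 31.2 CPM. Sema6c, a membrane semaphorin, was called in the CA1 layer at 39.3 CPM and 31.9 CPM.

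Sema5b, the relative of Sema5a, was regional elsewhere. Its highest region was the Ccn2-led deep layer neocortex in both sections, at 41.8 CPM (24.3 to 66.9) and 39.3 CPM (21.5 to 65.9), though on only 17 and 14 UMIs. Cluster 13 followed with 23.5 CPM and 22.9 CPM of Sema5b.

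Plxnd1, the receptor of Sema3e that is also known from vessels (chromosome 6, 115954811 to 115995005, minus strand), was highest in the upper layer neocortex at 45.6 CPM (38.3 to 53.8) and 37.4 CPM (32.3 to 43.0), with log2 ratios of 2.03 and 1.80. Efnb2, an ephrin-B ligand, was called in the same region at 32.8 and 23.2 CPM, and Sema3a, a secreted semaphorin, at 17.1 and 16.5 CPM. Ephb6, an Eph receptor without kinase activity, was regional in the deep layer neocortex at 71.7 CPM (64.1 to 79.9) and 82.6 CPM (75.9 to 89.7). Other cortical regions were close to it, with overlapping intervals. The Ccn2-led deep layer neocortex held 73.7 CPM from 30 UMIs in the section labelled trained. The upper layer neocortex held 78.0 CPM (70.6 to 85.9) in the section labelled untrained.

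In the diencephalon, calls lay in the habenula, the Prkcd-led thalamus and the Oxt-led hypothalamus. Plxnc1, the receptor of Sema7a (chromosome 10, 94790866 to 94944835, minus strand), was highest in the habenula at 120 CPM (89.1 to 158) and 67.8 CPM (54.7 to 83.0), with log2 ratios of 2.24 and 1.61. Epha8 was regional in the Prkcd-led thalamus, at 32.5 CPM and 16.9 CPM, although in the section labelled untrained the habenula (35.7 CPM) and the Gbx2-led thalamus (23.8 CPM) lay higher. It was nearly absent from the CA1 layer, with 0 UMIs and 1 UMI. Sema4g was called in the Prkcd-led thalamus at 36.2 and 55.6 CPM. In the section labelled trained, however, the Gbx2-led thalamus (44.6 CPM) and the reticular thalamus (44.3 CPM) lay higher. This call fell below 2-fold with every spot weighted equally (log2 ratio 0.80) and on side 1 (0.65). In the Oxt-led hypothalamus, Sema4a was at 36.0 and 32.3 CPM and Plxna3 at 21.4 and 28.3 CPM.

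The choroid plexus had 1 regional member with at least 200 UMIs. Plxnb2, a class B plexin known from epithelia and progenitor cells (chromosome 15, 89155549 to 89180788, minus strand), was at 131 CPM (106 to 160) and 198 CPM (186 to 211) there, with log2 ratios of 2.54 and 2.63. The 6 choroid plexus markers summed to 141067 CPM and 181759 CPM in this region and to at most 14194 CPM and 9624 CPM in any other. Sema3b, a secreted semaphorin below the minimum of 200 UMIs with 119 and 634 in all, was at 54.7 CPM from 40 UMIs and 80.8 CPM from 388 UMIs in the choroid plexus.

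The profiles of the 2 sections were then compared over regions. The points of each comparison were 19 regions that share a library and its depth within a section, so these correlations are descriptions. Over the 37 members the median Pearson r between sections was 0.766 (quartiles 0.615 and 0.849), beside 0.626 over all genes tested, and the median Spearman rho was 0.754 beside 0.605. Sema5a (r = 0.936), Epha4 (0.935), Epha7 (0.925) and Efnb3 (0.909) had the most alike profiles, and Ephb2 (0.226), Efnb1 (0.394) and Efnb2 (0.401) the least. These single values include the shallow cluster 18, which was the highest region of Ephb2, Efnb1 and Efnb2 under the label untrained only. Without cluster 18, the median over the members was 0.796, beside 0.684 over all genes. By family the medians were 0.773 for semaphorins, 0.766 for plexins, 0.611 for ephrins and 0.726 for Eph receptors. Of the 79 pairs of member and region that were 2-fold up in the section labelled trained and the 66 in the section labelled untrained, 52 were shared, 65.8% and 78.8% of each list, beside 50.2% and 57.1% over all genes.

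**Figure D3:**
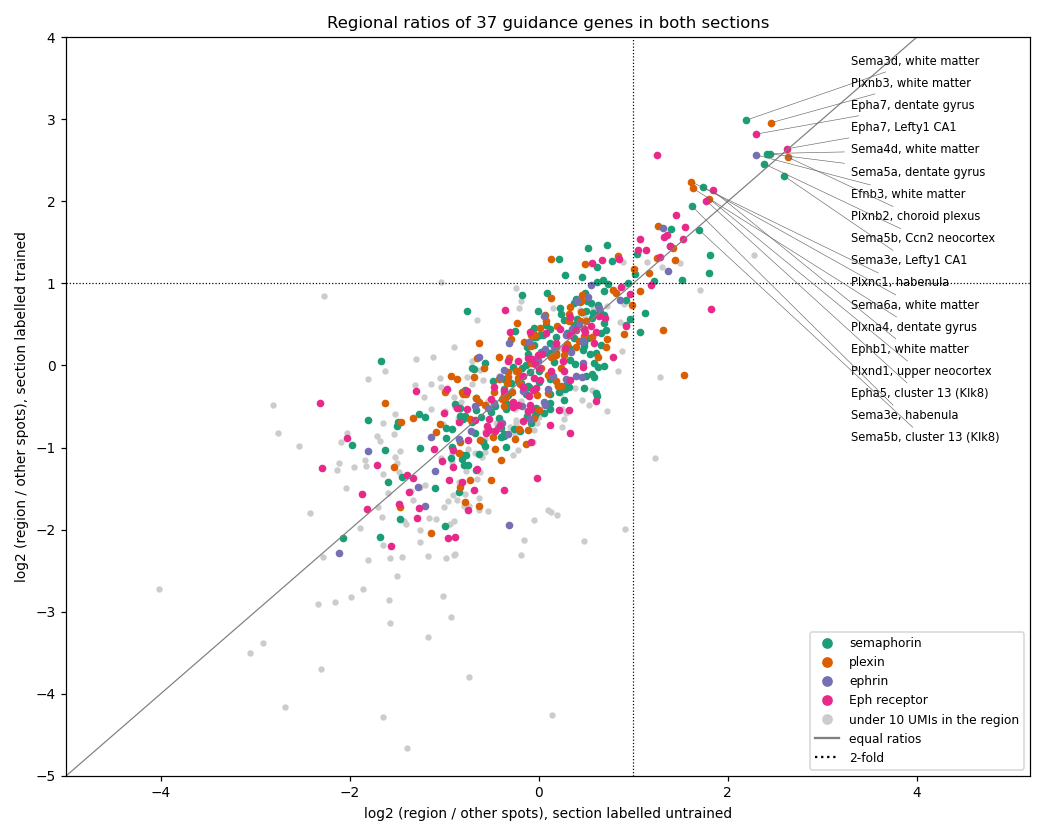
Each point is 1 of the 37 members in 1 of 18 regions (cluster 18 left out), with log2 of CPM in the region over CPM in the other clustered spots in the section labelled untrained on the horizontal axis and in the section labelled trained on the vertical axis. Coloured points have at least 10 UMIs in the region in each section and lie around the line of equal ratios, with Epha7 in the Lefty1-led CA1 layer (2.64 and 2.63) and Plxnb3 in white matter (2.96 and 2.46) among those farthest from the origin, while grey points with fewer UMIs scatter more widely.

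The parts of each section on either side of the midline gave a measure of agreement within an animal. Between the sides of a section the median r of the members was 0.649 for the label trained and 0.794 for the label untrained, over 18 regions. Between the sections it was 0.670 and 0.755 for like sides, and 0.640 and 0.699 for crossed sides. The values for like sides of the 2 animals lay between those found within the 2 sections, and 1 of the crossed values lay just below them. These medians were not held to the minimum of 200 UMIs on each side. With that minimum, 25 members in 15 regions could be compared on side 1, and 29 members in 18 regions on side 2. What part low counts per side had in the medians was not tested, so agreement between and within animals cannot be ranked. All 6 medians were above those over all genes, which ran from 0.510 to 0.584.

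The same region was highest in both sections for 20 of the 37 members, or 54.1%, beside 40.3% of all genes. Without cluster 18 the count was 24 members and 44.5% of all genes. Without the choroid plexus, meninges and white matter regions it was 12 of the 37 members beside 35.2% of all genes, so that the members' share was then the smaller one. By CPM alone and without cluster 18, 25 members had the same highest region, and for 8 more (Epha4, Epha7, Epha8, Epha10, Ephb6, Plxnb1, Sema3a and Sema4f) the highest region of 1 section was among the 2 highest of the other. For the remaining 4, Sema3c, Sema4g, Sema6b and Sema7a, it was in neither place. Sema3c, a secreted semaphorin, was highest in cluster 6 under the label trained (30.7 CPM) and in the deep layer neocortex under the label untrained (16.5 CPM). Sema6b was the broadest of these, between 31.8 and 99.0 CPM in the regions of the section labelled trained and between 23.7 and 98.2 CPM in those of the section labelled untrained. Sema7a was highest in the reticular thalamus of the former (67.6 CPM) and in the upper layer neocortex of the latter (74.0 CPM), and in both sections the 2 highest regions of Sema7a had overlapping intervals. Sema4g was highest in a thalamic region both times, the Gbx2-led one at 44.6 CPM and the Prkcd-led one at 55.6 CPM.

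The authors had also deposited Moran's I, a score that is high when neighbouring spots have like levels and that does not use the regions. Its median over the 37 members was 0.0433 in the section labelled trained and 0.0771 in that labelled untrained, beside 0.0256 and 0.0388 over all genes tested. Of the members, 30 and 33 lay above that overall median. Epha7 and Epha4 had the highest scores in both sections, 0.239 and 0.186 under the label trained. When the deeper section was thinned to the total UMIs of the shallower one, which leaves UMIs per spot unequal as the spot numbers differ, and the score was recomputed in both, the medians of the members were 0.0567 and 0.0502 beside 0.0346 and 0.0299, with 29 members above the overall median in each section.

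Ligands were set beside receptors they are known to bind, over the 18 regions without cluster 18. No values were computed for genes that are not ligand and receptor. The correlations and counts of regions are therefore descriptions that cannot be set apart from those of unmatched genes. Sema4d and Plxnb1 were the pair whose profiles ran most alike, with r = 0.663 and 0.656 in the sections labelled trained and untrained. Plxnb1 was at 84.9 CPM and 55.2 CPM in white matter, the highest region of Sema4d, and at 71.1 and 65.4 CPM in the choroid plexus. For other pairs the highest regions of ligand and receptor differed in both sections. Sema3e was highest in the CA1 layer and its receptor Plxnd1 in the upper layer neocortex (r = 0.175 and 0.0584), Sema5a in the dentate granule layer and Plxna2 in the CA1 layer (r = -0.159 and 0.175), Sema3a mainly in the upper layer neocortex and Plxna4 in the granule layer (r = 0.00048 and 0.0731), and Efnb2 in the upper layer neocortex and Ephb1 in white matter (r = 0.00074 and -0.214).

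For some pairs r was negative in both sections. Sema6d was highest in white matter, where Plxna1 was at 5.83 CPM and 14.1 CPM and ranked 17 of 18 regions in both sections, and r was -0.748 and -0.524. Efnb3 and Epha4 gave r = -0.597 and -0.395 and lay on opposite sides of the level of the other spots in 14 and 13 of the 18 regions. Sema7a with Plxnc1 gave -0.386 and -0.342, with opposite sides in 11 and 14 regions. Efnb3 with Ephb2 gave -0.384 and -0.218, with opposite sides in 12 and only 9 of the 18 regions. In the habenula, where Plxnc1 was highest, Sema7a ranked 14 and 18 of the 18 regions. Sema3f and Efna5 were below the minimum of UMIs. Sema3f gave r = 0.516 and 0.164 with Plxna3, and Efna5 gave -0.0668 and -0.208 with Epha4 and -0.229 and -0.266 with Epha5.

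**Figure D4:**
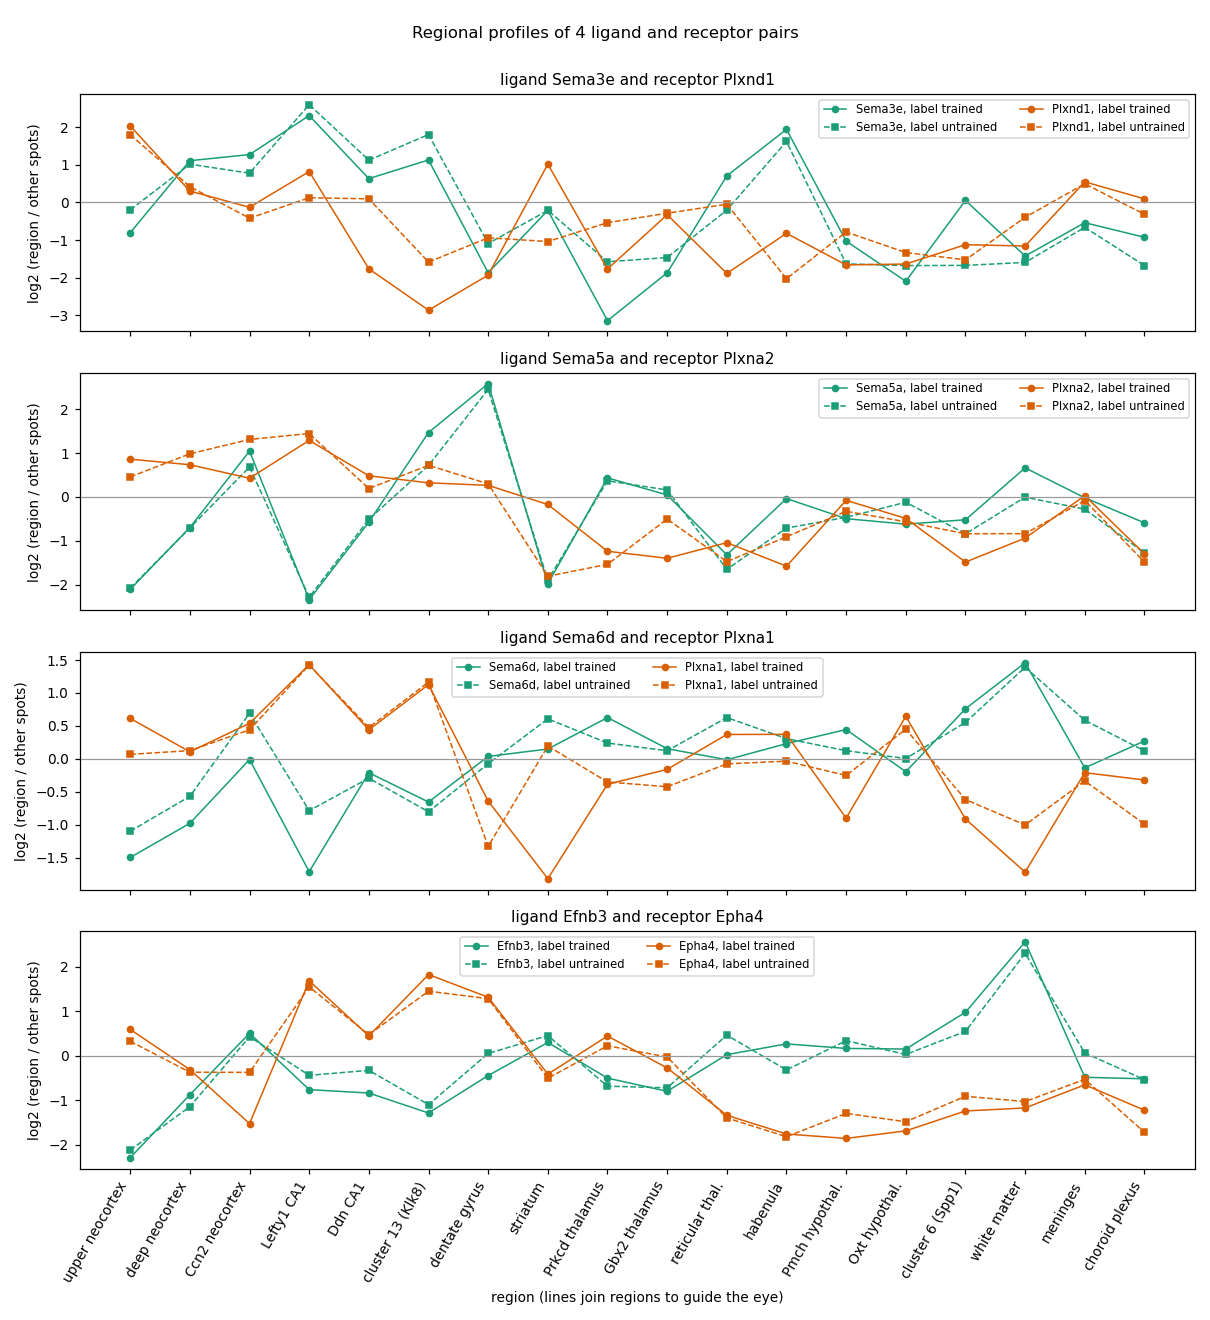
Log2 of CPM in a region over CPM in the other clustered spots of the same section, by region, for 4 ligands (green) and a receptor of each (orange), with the section labelled trained as circles and solid lines and that labelled untrained as squares and dashed lines. Sema6d and Plxna1, and Efnb3 and Epha4, lie on opposite sides of 0 in most regions of both sections (r = -0.748 and -0.524, and -0.597 and -0.395), and Sema5a peaks in the dentate gyrus and falls to its lowest in the Lefty1-led CA1 layer, where Plxna2 is highest.

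Between the sections as wholes, the summed level of all 54 members was 1073 CPM in the trained-label section and 1067 CPM in the untrained-label section. Of the 37 members 6 differed by more than 1.5-fold, beside 11.7% of all genes tested. Those higher under the label trained were 4 (8.5% of all genes), and those lower were 2 (3.23%). The median log2 ratio of trained over untrained was -0.01 over the members and 0.09 over all genes.

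Sema3d was at 7.69 CPM and 3.88 CPM over the whole sections, a log2 ratio of 0.99 (0.72 to 1.26). Epha5 was at 64.5 CPM and 34.3 CPM, a log2 ratio of 0.91 (0.82 to 1.003). Efnb2 was at 16.6 CPM and 10.2 CPM, a log2 ratio of 0.70 (0.52 to 0.87), which was 0.28 when every spot was weighted equally. Sema3c was at 17.4 CPM and 11.6 CPM, a log2 ratio of 0.59 (0.42 to 0.76). Of these 4, Epha5, Sema3d and Efnb2 had ratios past 1.5-fold also with the 19 regions weighted alike in both sections, at 0.97, 0.91 and 0.69, and Sema3c lay just under it at 0.58.

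Plxnb2 and Plxnb3 were lower under the label trained. Plxnb2 was at 25.4 CPM and 45.5 CPM, a log2 ratio of -0.84 (-0.96 to -0.73), and its highest region, the choroid plexus, gave 731353 UMIs of all genes in the trained-label section and 4804095 in the untrained-label section. Without the choroid plexus spots the log2 ratio was -0.50, and with regions weighted alike it was -0.56, both within 1.5-fold. Plxnb3 was at 10.3 CPM and 15.5 CPM, a log2 ratio of -0.59 (-0.78 to -0.40), -0.58 and just within 1.5-fold without the choroid plexus spots, and -0.78 with regions weighted alike. Sema3b, which was too low for the count above, had a log2 ratio of -1.41 (-1.71 to -1.13), and 388 of its 634 UMIs in the untrained-label section and 40 of its 119 in the other lay in the choroid plexus.

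**Figure D5:**
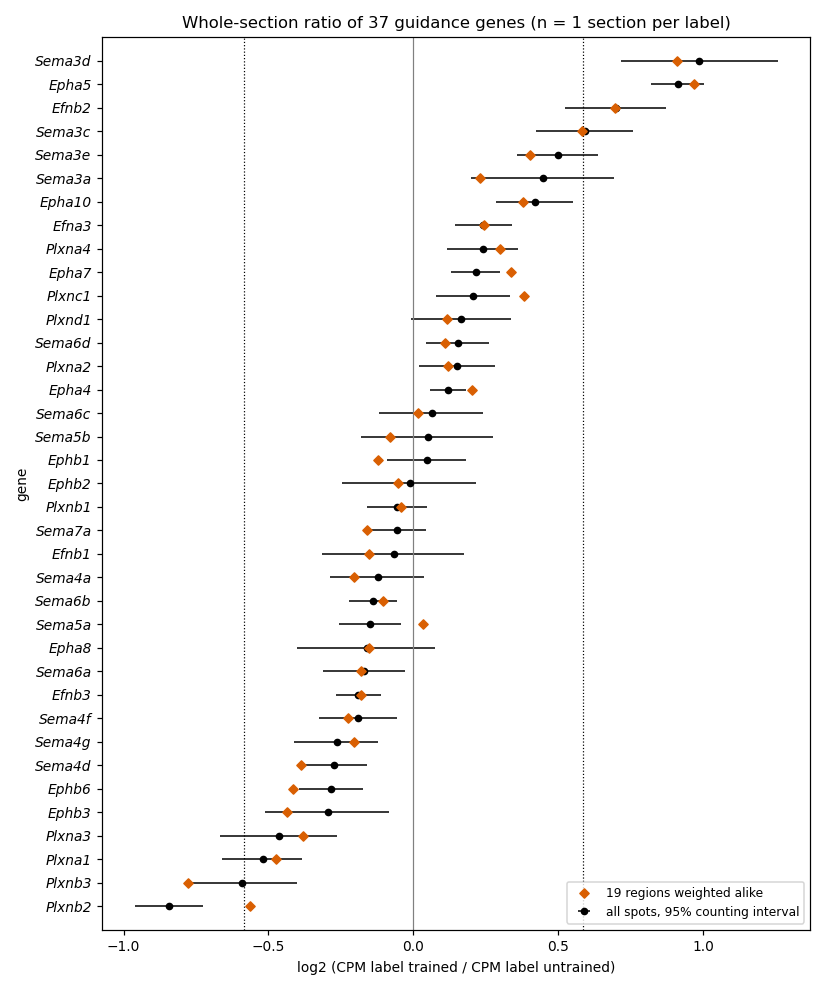
Log2 ratio of CPM in the section labelled trained over CPM in the section labelled untrained for the 37 members, over all spots (black points, with 95% intervals that cover counting error only) and with the 19 regions weighted alike (orange diamonds). Dotted lines mark 1.5-fold, and 6 black points lie beyond them, from Sema3d at 0.99 to Plxnb2 at -0.84, whose diamond lies within them.

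Within regions, a member was compared between sections where it had at least 50 UMIs in each. Epha5 was past 1.5-fold higher under the label trained in 9 of the 10 regions where it could be compared. The largest ratio was in the Pmch-led hypothalamus, where Epha5 was at 97.6 CPM and 27.1 CPM, a log2 ratio of 1.84 (1.52 to 2.19), and the smallest was in the Ddn-led CA1 cluster, 0.45 (-0.02 to 0.90). The remaining log2 ratios of Epha5 ran from 0.69 in the deep layer neocortex to 1.17 in cluster 13. In the 9 regions past the fold, the share of all genes that were as far up was 7.71% in the deep layer neocortex, 10% in the upper layer neocortex, 10.9% in the Pmch-led and 13.7% in the Oxt-led hypothalamus, 11.9% in the Gbx2-led thalamus, 11.6% in the meninges and vessels, 17.1% in the dentate granule layer, 13.5% in cluster 13 and 14.3% in the CA1 layer, and it was 8.95% in the Ddn-led CA1 cluster.

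Plxnc1 was past 1.5-fold higher under the label trained in 5 of the 6 regions where it could be compared, among them the habenula with a log2 ratio of 0.83 (0.30 to 1.34; 16.2% of all genes), although over the whole sections its ratio was 0.21. Plxna4 was past this fold in 4 of 8 regions, by 0.73 (0.44 to 1.02) in the dentate granule layer, and was -0.23 (-0.60 to 0.14) in the deep layer neocortex. Epha10 was past it in 4 of 6 regions, from 0.60 (0.23 to 0.97) in the deep layer neocortex to 0.85 (0.42 to 1.26) in the granule layer. In single regions, Epha7 was past it in the granule layer at 0.70 (0.53 to 0.86), Plxnb1 in white matter at 0.62 (0.27 to 0.97; 13.3% of all genes), Epha8 in the Prkcd-led thalamus at 0.94 (0.45 to 1.42; 12.6%) and Efnb2 in the deep layer neocortex at 0.61 (0.23 to 0.99).

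Sema4d, Sema4g, Efnb3 and Plxnb2 were past 1.5-fold lower under the label trained within a region. Sema4d was so in the deep layer neocortex (2.06% of all genes), at -0.83 (-1.23 to -0.46), and in the Pmch-led hypothalamus (3.34%), at -0.79 (-1.28 to -0.34), whereas its intervals in white matter overlapped between sections. Efnb3 was lower by this fold in the meninges and vessels (3.81%), at -0.72 (-1.17 to -0.29), and in the dentate granule layer (4.06%), at -0.66 (-1.07 to -0.29), and was -0.02 (-0.19 to 0.14) in white matter. Plxnb2 was at -0.59 (-0.91 to -0.29) in the choroid plexus, where 4.53% of all genes were past 1.5-fold lower, and at -0.67 (-1.14 to -0.23) in the Pmch-led hypothalamus. Sema4g was at -0.61 (-1.02 to -0.23) in the Prkcd-led thalamus (4.32%).

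The other 17 members had under 200 UMIs in at least 1 section and were left out of the counts above. Among Eph receptors, Epha1 had 10 and 40 UMIs in the sections labelled trained and untrained, Epha2 25 and 32, Epha3 140 and 225, Epha6 26 and 64, and Ephb4 54 and 160. Of the ephrin-A ligands, Efna1 had 141 and 415, Efna2 158 and 276, Efna4 11 and 37, and Efna5 126 and 227. Of the semaphorins, Sema3b had 119 and 634, Sema3f 137 and 405, Sema3g 51 and 86, Sema4b 114 and 239, and Sema4c 119 and 248. The antisense RNAs were nearly absent, Plxna4os1 with 17 and 28 UMIs, Plxna4os2 with 0 and 2, and Plxna4os3 with 0 in both. As a one-sided 95% limit, a count of 0 allows up to 3 UMIs.

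Of 40 other guidance genes, which hold netrins, Slits, their receptors, neuropilins and intracellular partners, 31 had enough UMIs and 19 were regional in both sections, or 17 with at least 10 UMIs in the region, beside 28.8% and 26% of all genes. The median r of their profiles between sections was 0.811, beside 0.626 over all genes. Robo3, a Robo family receptor, had the largest ratios of these, 3.43 and 3.07 on the log2 scale in the habenula, at 103 CPM and 109 CPM, and Nrp2, a neuropilin that binds class 3 semaphorins, was at 101 and 97.6 CPM there. Slit2, a secreted ligand of Robo receptors, was also called in the habenula, at 79.2 and 41.5 CPM, and Slit1 in cluster 13, at 90.0 and 98.7 CPM. Unc5b, a netrin receptor, was at 89.5 and 72.3 CPM in white matter, and Ntng1, a lipid-anchored relative of netrins, at 255 and 254 CPM in the Prkcd-led thalamus. Nrp1, the neuropilin that binds Sema3a, had only 31 and 141 UMIs and was not compared. Between the whole sections, Robo1 was past 1.5-fold higher under the label trained, at 0.71, and Dpysl5 lower, at -0.63.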

How the data were processed

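Visium data of 1 coronal section each from a trained and an untrained mouse were used. The authors aligned reads to mm10 with Space Ranger 2.0.0 and deposited raw UMI counts per gene and spot, with spot positions. They also deposited per gene a Moran's I score from Space Ranger, and p-value and adjusted p-value columns of that table were not used. No deposited columns of values lacked a sample (0). The deposited read counting does not state its strand setting.

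From the counts, spots with at least 500 UMIs (194 and 114 were left out) were scaled to 10000 UMIs, log-transformed and clustered jointly (1139 genes, 30 principal components, 15 neighbours, Leiden resolution 1.5), which gave 21 clusters. The 2 clusters with choroid plexus markers were merged, and 1 cluster lacking spots in 1 section was left out. Regions needed 20 spots in each section. A name needed at least 3 markers at 5 CPM, a marker among the 10 leading genes and a score above 0.9. That score, the midline columns (66 and 63) and the minimum of 10 UMIs in a region were set after the data had been seen. Ratios used a pseudocount of 0.5 UMI and genes with at least 200 UMIs in each section, called at 2-fold for regions and 1.5-fold for sections. Spots are not replicates, so no p-value was computed. Total UMIs limit the precision: a median spot held 5950.5 and 13766.5 UMIs, and mitochondrial genes took 12.3% and 16.2%. Totals of the 52 and 53 members listed in the deposited score tables matched the count matrices. Doublet calling does not apply to spots. Code was tested on simulated data. Gene positions came from GENCODE on GRCm38, the build of mm10, which held all 54 members.

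Members and lists were chosen with earlier results of these data known. The members described in most detail were, in each family, up to 7 of those called regional in both sections with the largest lower ratio, then members whose highest region differed, the 6 with the largest ratio between sections, and ligand and receptor pairs from textbook knowledge. One marker of the white matter list is not reported here and was left out of its summed level. Alternatives were another pseudocount, UMI minimum, scaling, depth, weighting, side of the brain, cluster resolution, fold and region set. Software comprised leidenalg 0.10.2, igraph 0.11.9, scikit-learn 1.9.0, scipy 1.17.1, numpy 2.4.6, pandas 2.3.3 and matplotlib 3.10.9 under Python 3.11.15.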

Additional observations from a re-analysis of the deposited data

How the results depend on the processing

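No paired analysis was possible because each label holds 1 section. The count of 30 regional members became 16 at a 3-fold call (11.8% of all genes), 18 on side 1 alone, where 25 members in 15 regions could be compared (22.1%), and 7 with a minimum of 1000 UMIs, which left 10 members (21.4%). It lay between 22 and 37 under the other settings, which compared unlike numbers of members. These ran from 29 on side 2 to 47 with a minimum of 50 UMIs. The share of all genes called under those settings ran from 20.6% without the choroid plexus, meninges and white matter regions to 58.6% at 1.5-fold. The median r of 0.766 was 0.823 with a pseudocount of 2 UMIs, 0.835 with a minimum of 1000 UMIs and 0.713 with every spot weighted equally. The count of 20 members with the same highest region was 12 of 37 without the choroid plexus, meninges and white matter regions, a smaller share than the 35.2% of all genes, and 5 of 10 with a minimum of 1000 UMIs, beside 45.9%. The count of 6 members past 1.5-fold between sections was 0 at 2-fold (2.09% of all genes) and 1 (Epha5) with a minimum of 1000 UMIs. The other guidance genes called regional, 19 of 31 in the main setting, were 12 of 23 on side 1 and 8 of 14 with that minimum. The median Moran's I of the section labelled untrained was 0.0771 as deposited, 0.0756 when recomputed and 0.0502 when recomputed after thinning to the total UMIs of the other section. With a pseudocount of 2 UMIs 31 members and 44.9% of all genes were called regional, and at 1.5-fold 35 members and 58.6%.

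No ratio changed direction among those called. Between sections, Sema3c fell within 1.5-fold without mitochondrial genes (0.53), on side 2 (0.50) and with regions weighted alike (0.58), and Plxnb3 when thinned (-0.58), on side 2 (-0.42) and without the choroid plexus spots (-0.58). Plxnb2 did so without those spots (-0.50) and with regions weighted alike (-0.56), and Efnb2 with every spot weighted equally (0.28). Sema3e passed it on side 1 (0.70) and Plxna1 on side 2 (-0.63). Of the 45 regional calls with at least 10 UMIs in the region in each section, none fell below 2-fold with a pseudocount of 2 UMIs, 1 did so without mitochondrial genes, 3 of 43 when thinned, 4 with every spot weighted equally, 4 of 31 on side 1 and 6 of 35 on side 2. These were Plxna4, Epha7, Ephb2, Plxna1 and Sema3e in cluster 13, Sema4g and Sema6a in the Prkcd-led thalamus, Sema3e in the deep layer neocortex, Epha5 and Plxna1 in the CA1 layer and Sema4a in the Oxt-led hypothalamus, each under 1 or more of these settings, the lowest log2 ratio being 0.64 for Plxna1 in the CA1 layer on side 1. The causes were not tested. Depth limits members with few UMIs in small regions, and the alternatives on cluster 18, on 10 UMIs, on choroid plexus spots and on equal region weights were added after the data had been seen.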
